A study of Mus musculus with 8 samples.

Results

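The adrenergic and muscarinic receptors described here are 6 genes, Adrb1, Adrb3, Adra1a, Adra1b, Adra1d and Chrm2, out of 41096 rows in the deposited count table. All 6 were found by gene name, 1 row each. They were chosen by their level in each library and their fold change between the diets, with earlier results of the same libraries known, so their values in the diet comparison are a description.

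RNA was sequenced from the left ventricle of 8 mice, 4 fed Normal Chow and 4 fed HFD-LNAME, a high-fat diet with 0.5% L-NAME, which blocks nitric oxide synthases. Feeding began at 12 weeks of age and lasted 9 weeks. The strain is given as C57BL/5NJ in both groups, and each library carries its own mouse number. The series design mentions male and female mice with wild-type (NNT+/+) or deleted (NNT-/-) Nnt, but no sex or genotype is given for these 8 libraries. Total counts per library ranged from 31522074 to 52053633, and they averaged 48623199 ± 4759599 in chow and 36679075 ± 3937988 with HFD-LNAME (SD, n = 4 each).

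Noradrenaline from sympathetic nerves and adrenaline from the adrenal gland act on beta and alpha-1 receptors of the heart. Beta-1 receptors couple to Gs, raise cyclic AMP through adenylyl cyclase and, through protein kinase A, speed the heart and strengthen its beat. Beta-3 receptors are best known from fat cells, where they drive lipolysis and, in brown fat, heat production. Alpha-1 receptors couple to Gq and phospholipase C, and in vessels they contract smooth muscle. Acetylcholine from the vagus nerve acts on the M2 receptor, encoded by Chrm2, which couples to Gi and opens the potassium channel built from the products of Kcnj3 and Kcnj5.

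The libraries differed widely in atrial transcripts. The atrial myosin light chain Myl7 was high in 5 libraries, at 290 and 282 CPM (read counts scaled to a common library total, with TMM factors) for chow 1 and 3 and at 685, 293 and 216 CPM for HFD-LNAME 2, 3 and 4. It was low in the other 3, at 0.713 CPM in chow 2, 1.02 CPM in chow 4 and 10.2 CPM in HFD-LNAME 1. Over the 6 atrial markers, the summed level ran from 152 to 2216 CPM in chow and from 173 to 4206 CPM with HFD-LNAME. Ventricular muscle markers, 8 genes such as Myl2, summed to 79116 to 94645 CPM in chow and to 69216 to 89502 CPM with HFD-LNAME. The list includes genes that atrial muscle also expresses, such as Tnni3. Its sum shows heart muscle in every library but does not measure ventricular muscle alone. In whole tissue, fewer cells of a type and less RNA per cell cannot be told apart.

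None of the 5 receptors that passed the filter on low counts was called between the diets by edgeR's quasi-likelihood test with Benjamini-Hochberg adjustment over all genes (0 of 5, where 0.0134% of the 14875 genes tested were called). Their adjusted p ran from 0.364 for Adra1b to 0.926 for Adra1d. An unadjusted p under 0.05 was found for 1 of the 5, Adra1b, on the higher side, where 9.56% of all genes had one, 5.02% higher and 4.54% lower. DESeq2 called 0 of the 5, where 1.1% of genes were called, and limma-voom 0 of the 5, where 0% were. In none of the 5 did the groups stand clear of each other, as they did in 5.97% of all genes, 2.73% with the treated group higher. The sixth, Adrb3, had too few counts for the test, with reads in 3 treated libraries and none in chow.

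**Figure D1:**
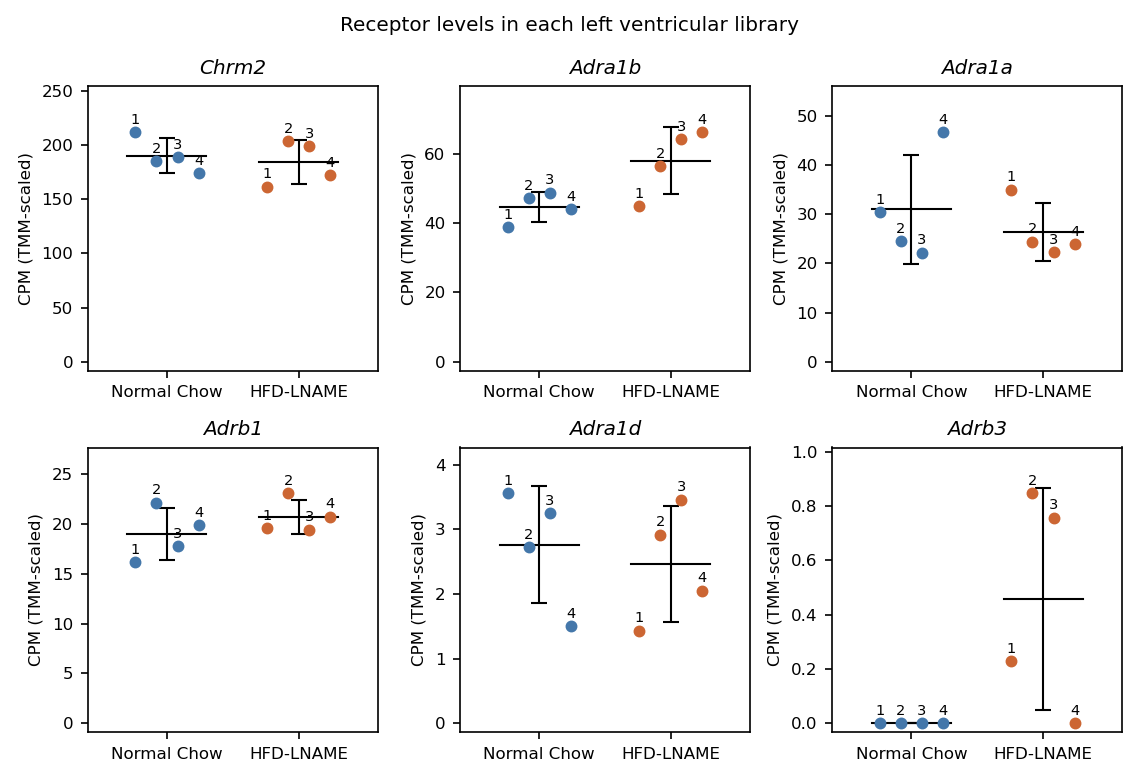
Level of each receptor gene in CPM (TMM-scaled, linear axes of different height from 0) in the 4 Normal Chow and 4 HFD-LNAME libraries. Points are libraries with their replicate number, and black lines are the group mean and SD. Adra1b averaged 44.7 CPM in chow and 58.0 CPM with HFD-LNAME, and Adrb3 was at 0 in all chow libraries.

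Compared per length, in CPM per kilobase of exon, Chrm2 was the most abundant of the 6 (30.9 ± 2.85, SD over all 8 libraries). Adra1b followed at 15.2 ± 2.94, Adrb1 at 5.87 ± 0.655, Adra1a at 3.28 ± 0.979, Adra1d at 1.37 ± 0.448 and Adrb3 at 0.0679 ± 0.108. This order held in 8 of 8 libraries. Lengths were the joined exons of each gene in the GENCODE M21 annotation. With the longest coding transcript in their place, Adra1a averaged 6.69 ± 1.99 and Adrb1 6.73 ± 0.751, and the order held in 5 of 8 libraries, so the positions of Adra1a and Adrb1 relative to each other depend on the transcript assumed. The lowest Chrm2 value, 26.7, lay above the highest Adra1b value, 19.6, and the lowest Adra1b value, 11.5, lay above the highest Adrb1 value, 6.83. Adrb1 and Adra1a overlapped across libraries, with 4.79 as the lowest Adrb1 value and 5.35 as the highest of Adra1a.

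Adrb1, the main beta receptor of heart muscle, was at 16.2, 22.2, 17.8 and 19.9 CPM in chow 1 to 4 and at 19.6, 23.1, 19.5 and 20.7 CPM in HFD-LNAME 1 to 4. The groups overlapped in part: chow 1 and 3 lay below every treated library, and HFD-LNAME 2 above every chow library. The means were 19.0 ± 2.59 and 20.7 ± 1.68 CPM (SD, n = 4 each). The log2 fold change was 0.12 ± 0.12 (SE). The 95% interval ran from -0.10 to 0.35, which leaves room for a ratio between 0.931 and 1.28.

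Adrb3 was read only with HFD-LNAME, and in 3 of its 4 libraries. It had 0 counts in each of the 4 chow libraries and 8, 36, 25 and 0 counts in HFD-LNAME 1 to 4. Exact Poisson 95% intervals were 3.45 to 15.8, 25.2 to 49.8 and 16.2 to 36.9 counts in HFD-LNAME 1, 2 and 3, and they cover counting error only. A floor of 3 counts was set for a count of 0, a one-sided allowance that is smaller than the two-sided Poisson limit of 3.69 drawn in the plot of Adrb3 and adipocyte transcripts. It is 0.0564 to 0.0717 CPM in the chow libraries and 0.0820 CPM in HFD-LNAME 4, so the gene may be present there below this level. HFD-LNAME 1, 2 and 3 held 0.229, 0.847 and 0.758 CPM. Pooled over the treated group, Adrb3 was at 0.469 CPM. The 3 counts allowed for 0 over the whole chow group came to 0.0155 CPM, which gives a ratio of 30.4. The 69 treated counts were taken without their own interval of 53.7 to 87.3, and pooling leaves out the spread between mice. Without HFD-LNAME 2 and 3 this ratio was 7.23, resting on the 8 counts of HFD-LNAME 1 without their interval of 3.45 to 15.8. Without HFD-LNAME 2 alone it was 20.4. The authors' deposited table lists a log2 fold change of 6.91 for Adrb3 and gives no adjusted p.

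The libraries with the most Adrb3, HFD-LNAME 2 and 3, were also highest in Plin1, Adipoq and Ucp1. Plin1, the coat protein of fat droplets, had 113, 23, 31 and 22 counts in chow 1 to 4 and 56, 511, 288 and 94 counts in HFD-LNAME 1 to 4. Adipoq, the fat cell hormone adiponectin, had 75, 15, 7 and 2 counts in chow and 42, 230, 120 and 36 with HFD-LNAME. Ucp1, the heat-producing uncoupling protein of brown fat, had 0, 2, 14 and 0 counts in chow and 0, 487, 166 and 0 with HFD-LNAME. Plin1 and Adipoq were thus highest in HFD-LNAME 2 and 3, present in every library, and higher in chow 1 than in HFD-LNAME 1, whereas Ucp1 stood out in HFD-LNAME 2 and 3 and was not read in HFD-LNAME 1. Over the whole list of 11 adipocyte markers, the summed level ran from 612 to 735 CPM in chow and from 690 to 1114 CPM with HFD-LNAME. That sum was highest in HFD-LNAME 1 and, at 690 CPM, lower in HFD-LNAME 3 than in chow 2, at 735 CPM. Most of it is Fabp4, at 414 to 752 CPM, followed by Plin4 at 94.3 to 249 CPM, both of which the heart also expresses. Of the 11, Retn was at 0 in chow 2, 3 and 4 and in HFD-LNAME 3 and 4. edgeR called 0 of the 10 that were tested, and their median log2 fold change was 2.61. An unadjusted p under 0.05 was found for 9, all higher, where 5.02% of all genes had one on that side. This and the other marker lists were chosen with earlier results of these libraries known, so such counts are a description. The 5 brown fat markers summed to 24.8 to 38.0 CPM in chow and 42.7 to 56.997 CPM with HFD-LNAME. Most of that sum is Cidea, at 23.8 to 36.0 CPM in chow and 37.5 to 43.8 CPM with HFD-LNAME. Cidea was highest in HFD-LNAME 1, which had 0 counts of Ucp1, so the sum does not follow Ucp1. Of the 5 markers, 3, Ucp1 among them, were at 0 in chow 4 and in HFD-LNAME 1 and 4. The part of these transcripts in the Adrb3 values was not tested.

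**Figure D2:**
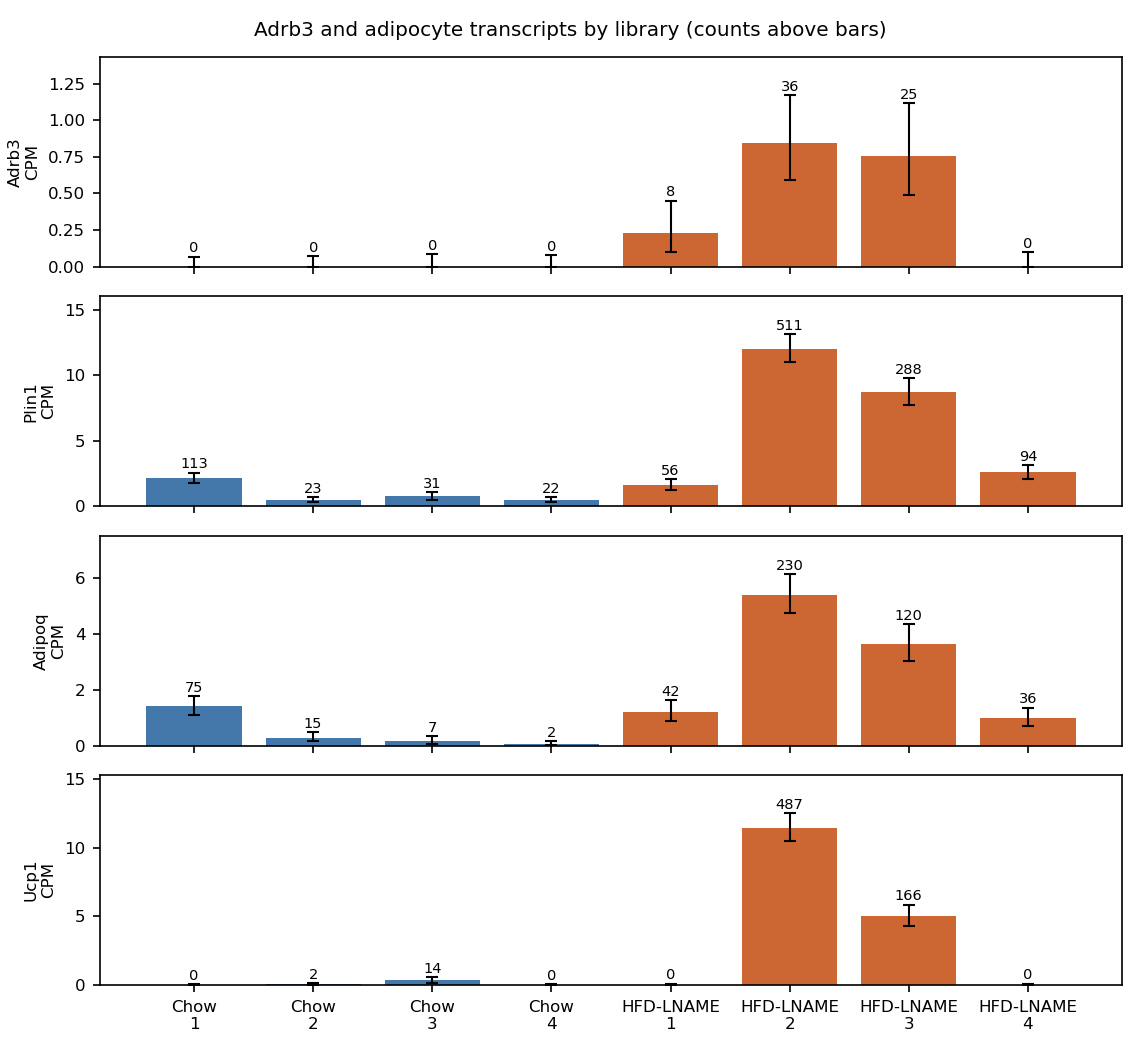
Levels of Adrb3, Plin1, Adipoq and Ucp1 in CPM (linear axes from 0) in the 8 libraries, with blue bars for Normal Chow and orange bars for HFD-LNAME. Error bars are exact Poisson 95% intervals and numbers above the bars are counts. All 4 genes peak in HFD-LNAME 2 and 3, while HFD-LNAME 1 has 8 counts of Adrb3 and 0 of Ucp1.

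The ratio of Adrb3 to adipocyte genes is given here as a description, since Adrb3 was chosen with these values known. For every 100 counts of Plin1 there were 14.3 counts of Adrb3 in HFD-LNAME 1 (5.88 to 30.1, exact binomial 95%), 7.05 in HFD-LNAME 2 (4.88 to 9.88) and 8.68 in HFD-LNAME 3 (5.52 to 13.1). Chow 1, with 113 counts of Plin1, and HFD-LNAME 4, with 94, had 0 counts of Adrb3, with upper limits of 3.32 and 4.002 by the same method. These limits lie below the intervals of HFD-LNAME 1, 2 and 3. Such intervals cover counting error within a library only and leave out the spread between mice. In chow 2, 3 and 4 the 22 to 31 counts of Plin1 gave upper limits of 12.6 to 18.3, too wide to set against the treated libraries. Against Adipoq, the ratio was 19.0, 15.7 and 20.8 per 100 in HFD-LNAME 1, 2 and 3. The upper limits were 5.04 in chow 1 and 10.8 in HFD-LNAME 4, and the latter overlaps the intervals of HFD-LNAME 1 (7.72 to 41.1) and 2 (10.7 to 22.3). Against Cidec, another fat droplet protein, the ratio was 9.30, 12.4 and 13.8 per 100 in HFD-LNAME 1, 2 and 3. There the upper limit of 11.1 in HFD-LNAME 4 overlaps the intervals of all 3 (3.89 to 19.2, 8.50 to 17.5 and 8.71 to 21.1), and that of 6.13 in chow 1 overlaps HFD-LNAME 1. Whether the libraries are apart in ratio thus depends on the adipocyte gene used. In GENCODE M21 the antisense gene Gm45470 shares 839 exon bases with Adrb3, and without a stated strand setting reads from either gene could be counted for Adrb3.

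Adra1b, the alpha-1B receptor, had the largest difference between the diets among the 5 tested. It was at 38.9, 47.3, 48.8 and 43.9 CPM in chow 1 to 4 and at 45.0, 56.4, 64.3 and 66.3 CPM in HFD-LNAME 1 to 4. HFD-LNAME 2, 3 and 4 lay above every chow library, while HFD-LNAME 1 lay among them. The means were 44.7 ± 4.38 and 58.0 ± 9.68 CPM (SD, n = 4 each). The log2 fold change was 0.38 ± 0.12 (SE), a ratio of 1.30 with a 95% interval of 1.10 to 1.53. HFD-LNAME 1 was also the treated library with little Myl7. Within the 5 libraries with Myl7 above 200 CPM, a split chosen after the data were seen, the log2 fold change was 0.51 ± 0.13. The 3 other libraries hold 1 treated library, so their value, -0.02, has no replicate on that side and is not set against the first. With the mean level of the atrial markers added to the fit of all 8 libraries, the log2 fold change was 0.34 ± 0.13 (adjusted p = 0.384, edgeR). The part of atrial tissue itself in the Adra1b values was not tested. Smooth muscle markers, 7 genes, summed to 328 to 468 CPM in chow and to 399 to 605 CPM with HFD-LNAME, and their part was not tested either. Of the 7, 5 had a log2 fold change above 0 and 2, Smtn and Myocd, below 0. edgeR called 0 of the 7, and 4 had an unadjusted p under 0.05, all higher, where 5.02% of all genes had one on that side. Acta2 overlapped between the groups, at 60.4 to 163 CPM on chow and 66.0 to 152 CPM with HFD-LNAME.

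Adra1b is annotated with more than 1 start, and a count per gene does not say which start was used. The RefSeq windows of 300 bases on GRCm38.p6, from 250 bases before to 50 bases after the start, are shown for both starts because this gene differed most between the diets. Capitals mark every CCAAT and every GGGCGG on either strand, and the sequences read 5′ to 3′ on the minus strand.
Adra1b upstream start, chr11:43901188-43901487: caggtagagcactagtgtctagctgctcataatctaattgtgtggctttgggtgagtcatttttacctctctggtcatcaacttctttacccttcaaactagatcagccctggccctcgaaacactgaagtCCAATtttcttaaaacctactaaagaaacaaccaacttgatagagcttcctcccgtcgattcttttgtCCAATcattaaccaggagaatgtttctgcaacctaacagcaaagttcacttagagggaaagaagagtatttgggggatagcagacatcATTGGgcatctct
Adra1b downstream start, chr11:43836440-43836739: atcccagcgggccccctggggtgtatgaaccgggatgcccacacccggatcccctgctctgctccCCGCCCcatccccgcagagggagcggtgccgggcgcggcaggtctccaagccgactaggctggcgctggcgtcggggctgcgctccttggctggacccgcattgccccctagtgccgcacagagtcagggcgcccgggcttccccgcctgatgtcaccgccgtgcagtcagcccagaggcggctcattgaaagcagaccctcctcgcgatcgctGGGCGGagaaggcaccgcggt
The upstream window is 42.3% G and C, where 14.9% of the 32851 windows of this length have less, and holds 3 CCAAT and 0 GGGCGG. The downstream window is 71.3% G and C, where 92.2% of windows have less, and holds 2 GGGCGG and 0 CCAAT. Of all windows 37.4% hold a CCAAT and 35.7% a GGGCGG, and neither the TATA box TATAAA, found in 13.6%, nor the cyclic AMP response element TGACGTCA, found in 1.79%, occurs in either window. Among the 6 receptors, 3 matched the table by symbol, Adra1b, Adrb1 and Chrm2, with 4 windows in all. The Adrb1 window is 72.3% and the Chrm2 window 52.7% G and C, each with 1 CCAAT and 1 GGGCGG.

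Adra1a, the alpha-1A receptor, differed more between mice of 1 diet than between the diets. It was at 30.4, 24.5, 22.2 and 46.7 CPM in chow 1 to 4 and at 35.0, 24.4, 22.2 and 23.9 CPM in HFD-LNAME 1 to 4. Chow 4 and HFD-LNAME 1 were highest, 1 in each group, chow 1 came next, and the other 5 libraries lay between 22.2 and 24.5 CPM. The means were 30.96 ± 11.1 and 26.4 ± 5.82 CPM (SD, n = 4 each). The log2 fold change was -0.23 ± 0.22 (SE), and 0.036 ± 0.17 without chow 4. Chow 4 and HFD-LNAME 1 also had the highest summed level of ventricular markers, 94645 and 89502 CPM, and little Myl7. Chow 2, with the lowest Myl7 and the third highest ventricular sum, 86287 CPM, had Adra1a at only 24.5 CPM. The part of these transcripts in the Adra1a level was not tested.

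Adra1d, the alpha-1D receptor known from the smooth muscle of large vessels, was scarce. It was at 3.55, 2.72, 3.25 and 1.502 CPM in chow 1 to 4 and at 1.43, 2.92, 3.45 and 2.05 CPM in HFD-LNAME 1 to 4. Its lowest values were in HFD-LNAME 1 and chow 4, the libraries highest in Adra1a. The means were 2.76 ± 0.905 and 2.46 ± 0.9002 CPM (SD, n = 4 each). The log2 fold change was -0.16 ± 0.35 (SE), and 0.028 ± 0.34 without HFD-LNAME 1. The antisense gene Gm14285, which shares 147 exon bases with Adra1d in GENCODE M21, had 20 counts in chow 3 and 0 in each other library. Chrm2 shares 142 exon bases with the long noncoding gene 9330158H04Rik on the opposite strand, which has no named row.

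Per length of joined exons, Adra1b made up most of the alpha-1 transcripts in every library. Its share of the summed CPM per kilobase was 68.2%, 76.7%, 77.2% and 67.9% in chow 1 to 4 and 73.6%, 79.4%, 81.3% and 83.7% in HFD-LNAME 1 to 4. HFD-LNAME 2, 3 and 4 thus had the highest shares, and HFD-LNAME 1 lay within the chow range. The share of Adra1a ran from 13.6% in chow 3 to 28.0% in chow 4 on chow, and from 10.9% in HFD-LNAME 3 to 22.2% in HFD-LNAME 1 on the treated diet. Adra1d held 4.13% to 11.1% in chow and 4.17% to 7.78% with HFD-LNAME. These shares depend on the length assumed. The longest coding transcript of Adra1a, 4282 bases against 8728 of joined exons, would raise its share and lower that of Adra1b. By counts without a length, chow 4 held 50.7% Adra1a and 47.7% Adra1b.

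**Figure D3:**
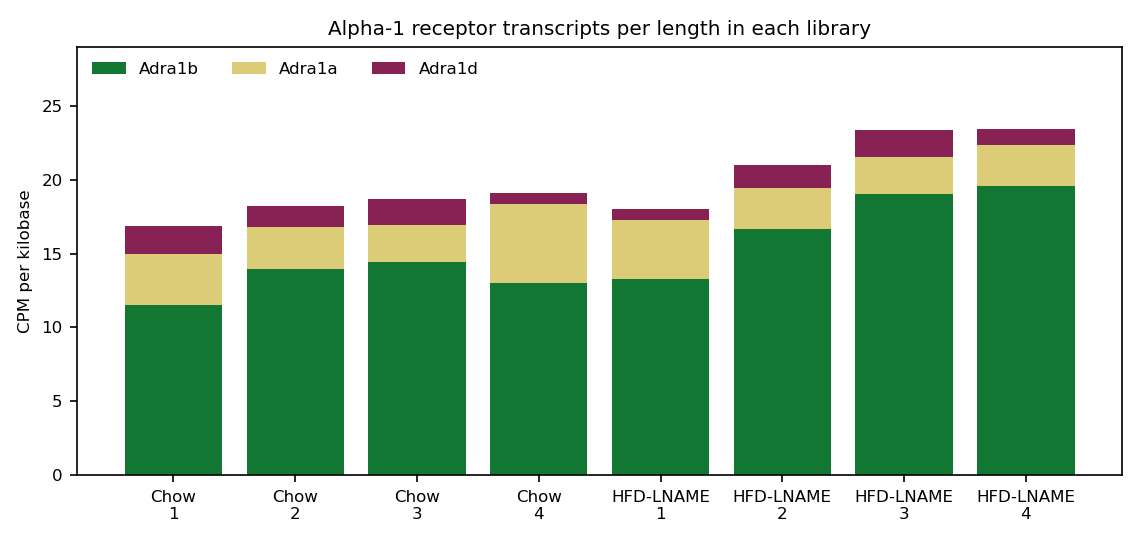
Summed level of the 3 alpha-1 receptor genes in each library, in CPM per kilobase of joined exons (linear axis from 0), stacked by gene. The parts depend on the length assumed for each gene. The total was 16.9 to 19.1 in chow and 18.1 to 23.4 with HFD-LNAME, with Adra1b as the largest part of every bar.

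Chrm2, the M2 receptor through which the vagus nerve slows the heart, was at 212, 185, 189 and 174 CPM in chow 1 to 4 and at 162, 204, 199 and 172 CPM in HFD-LNAME 1 to 4. The highest value was in chow 1 and the lowest in HFD-LNAME 1, and the groups overlapped. The means were 190.3 ± 15.9 and 184 ± 20.3 CPM (SD, n = 4 each). The log2 fold change was -0.05 ± 0.10 (SE). The 95% interval ran from -0.24 to 0.14, a ratio between 0.849 and 1.10. Within the 5 libraries with Myl7 above 200 CPM the log2 fold change was -0.07 ± 0.11. Chow 4 and HFD-LNAME 1, low in Myl7, were among the 3 lowest libraries for Chrm2, but HFD-LNAME 4, with 216 CPM of Myl7, was the second lowest. Its channel partners Kcnj3 and Kcnj5 overlapped between the diets. Kcnj3 averaged 111 ± 17.1 CPM on chow and 111 ± 14.1 CPM with HFD-LNAME, and Kcnj5 119 ± 17.4 and 134 ± 26.9 CPM (SD, n = 4 each). Kcnj3 was lowest in HFD-LNAME 1 and chow 4, at 90.2 and 92.4 CPM.

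The other receptors of both families were low. Adra2c, an alpha-2 receptor that couples to Gi, averaged 0.388 ± 0.157 CPM on chow and 0.496 ± 0.268 CPM with HFD-LNAME (SD, n = 4 each). Chrm3, a Gq-coupled muscarinic receptor, averaged 0.931 ± 0.545 and 0.746 ± 0.194 CPM. Adra2a had 4 counts over the chow group and 2 over the treated group, Chrm1 0 and 7, the latter in HFD-LNAME 2 and 3, and Chrm4 10 and 0, the former in chow 1, all under the filter. Chrm5 has no row with a name.

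For the pathway around the receptors, 95 genes were listed, of which 93 had a named row and 83 were tested. edgeR called 0 of the 83. An unadjusted p under 0.05 was found for 9, or 10.8%, 5 higher and 4 lower, against the 9.56% of all genes. DESeq2 called 1 of the 83, Akap5, lower with HFD-LNAME, which is near the 1.1% it called over all genes, and limma-voom 0. Groups did not overlap for 2 genes, or 2.41%, against 5.97% of all genes. The median log2 fold change over the 83 was 0.06, against 0.0024 over all genes tested. Over all 14875 genes, 7513 had a log2 fold change above 0 and 7362 below 0, the background for the counts by direction given for each list.

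Among the 10 G protein alpha subunits, 8 had a log2 fold change above 0, with a list median of 0.05. Gnai1, an inhibitory subunit, was at 6.54, 6.17, 8.23 and 5.65 CPM in chow 1 to 4 and at 8.83, 11.2, 11.1 and 8.86 CPM in HFD-LNAME 1 to 4. Every treated value lay above every chow value, and the log2 fold change was 0.59 ± 0.16 (SE), with an edgeR adjusted p of 0.265. Gnas, which encodes the stimulatory subunit, averaged 966 ± 45.4 and 1076 ± 63.1 CPM (log2 fold change 0.16 ± 0.07), and Gnai2, another inhibitory subunit, 238 ± 17.4 and 234 ± 16.5 CPM. Of the 9 adenylyl cyclases, which make cyclic AMP, 6 had a log2 fold change above 0. The main cyclases of heart muscle, Adcy5 and Adcy6, had log2 fold changes of -0.05 ± 0.07 and 0.23 ± 0.12, and Adcy4 0.42 ± 0.12 (edgeR adjusted p = 0.305).

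Among the 12 genes of protein kinase A and its anchors, 7 had a log2 fold change below 0. Akap5, which anchors the kinase near the plasma membrane, was at 5.96, 8.48, 4.38 and 2.56 CPM in chow 1 to 4 and at 2.601, 2.64, 2.43 and 1.67 CPM in HFD-LNAME 1 to 4. Chow 1, 2 and 3 lay above every treated library and chow 4 did not (log2 fold change -1.20 ± 0.34, SE; edgeR adjusted p = 0.280, DESeq2 adjusted p = 0.0444). The regulatory subunit gene Prkar1a averaged 729 ± 50.6 and 647 ± 37.2 CPM. Of the 8 kinase targets of heart muscle, 7 had a log2 fold change below 0. So had 7 of the 8 ventricular muscle markers, with a median of -0.20 and Tnni3 in both lists, and the part of heart muscle content was not tested. Mybpc3, cardiac myosin-binding protein C, had every treated value below every chow value, with means of 6168 ± 633 and 5149 ± 480 CPM (log2 fold change -0.26 ± 0.09, edgeR adjusted p = 0.399). For Ryr2, the calcium release channel, the log2 fold change was -0.10 ± 0.09, and for Pln, the brake of the calcium pump, -0.01 ± 0.09.

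The genes that switch the receptors off gave 0 calls. Of the 7 receptor kinases and arrestins, 6 had a log2 fold change above 0. Grk2 and Grk5, the main receptor kinases of the heart, had log2 fold changes of 0.08 ± 0.08 and 0.20 ± 0.21, Grk3 0.28 ± 0.15 and the arrestin gene Arrb1 0.23 ± 0.20. Of 9 tested RGS genes, which speed the shut-off of G proteins, Rgs2, Rgs5 and Rgs6 had log2 fold changes of 0.13 ± 0.16, 0.14 ± 0.10 and -0.21 ± 0.14.

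Of 12 tested effectors of the alpha-1 receptors, 3 had an unadjusted p under 0.05, 2 higher and 1 lower, where 9.56% of all genes had one, 5.02% higher and 4.54% lower. Itpr2, an inositol trisphosphate receptor of heart muscle, was at 22.03 to 28.5 CPM in chow and at 55.7, 43.3, 30.2 and 24.8 CPM in HFD-LNAME 1 to 4. HFD-LNAME 1 to 3 lay above every chow library and HFD-LNAME 4 did not (log2 fold change 0.56 ± 0.21, edgeR adjusted p = 0.436). The log2 fold change was -0.23 ± 0.09 for the kinase gene Prkca and 0.28 ± 0.18 for the phospholipase gene Plcb1. The remaining 1 of the 3 was Plcb4, another phospholipase, at 0.27 ± 0.12, named after its value was seen.

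**Figure D4:**
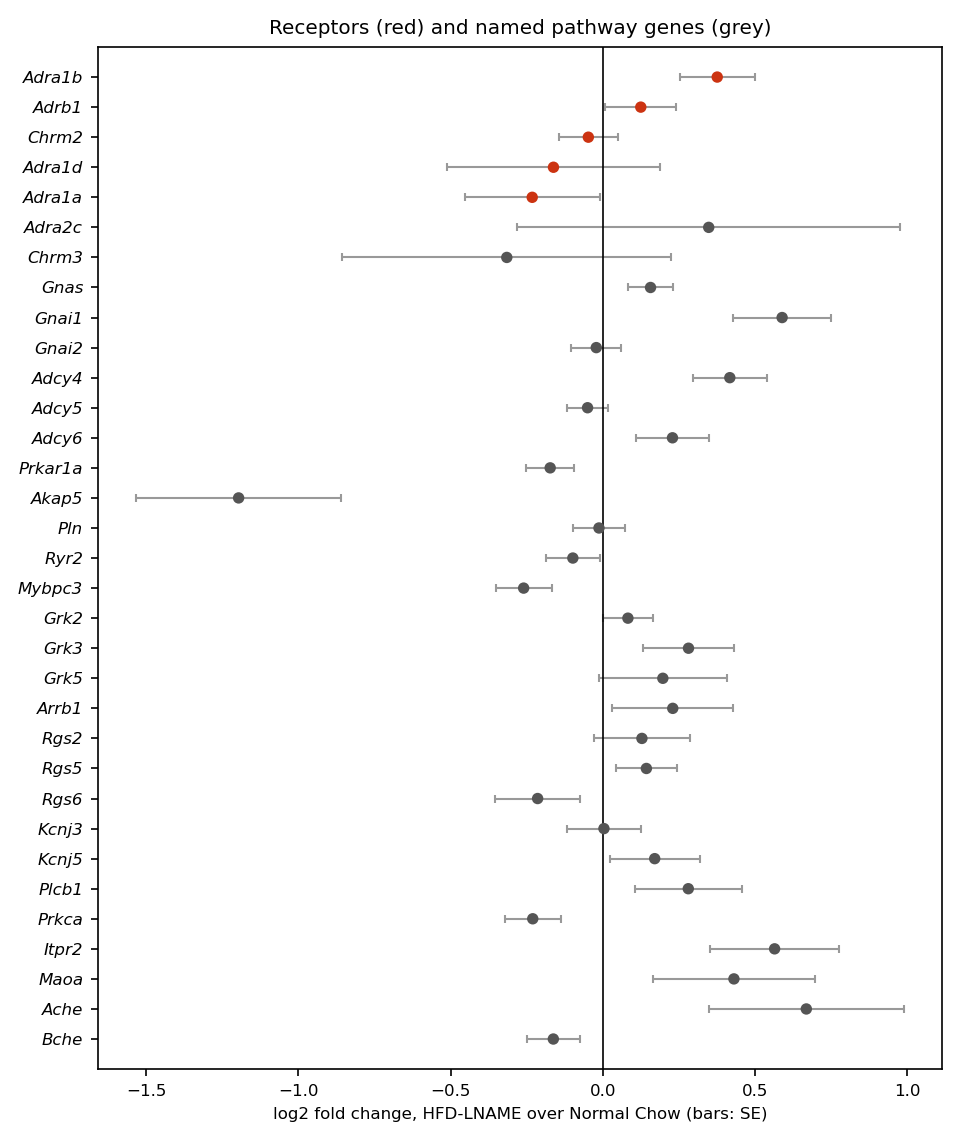
Log2 fold changes of HFD-LNAME over Normal Chow from edgeR (points, with SE bars) for the 5 tested receptors in red and pathway genes named in the text in grey. None passed the threshold, and Adra1b, at 0.38, was the receptor farthest from 0.

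Of the 8 tested genes of catecholamine synthesis, uptake and breakdown, 1 had an unadjusted p under 0.05, on the higher side. Of all genes 9.56% had one, 5.02% on the higher side. For Maoa, an oxidase that breaks down catecholamines, the log2 fold change was 0.43 ± 0.27. The 8 nerve and Schwann cell markers summed to 8.21 to 12.1 CPM on chow and to 12.7 to 14.2 CPM with HFD-LNAME. Only 3 of the 8 were tested, 2 with a log2 fold change above 0 and 1 below 0, and edgeR called 0. An unadjusted p under 0.05 was found for 1 of the 3, on the higher side. In each chow library 3 or 4 of the 8 were at 0 counts, and in HFD-LNAME 1 to 4 these were 3, 0, 1 and 3. Of the enzymes of catecholamine synthesis, Ddc, Dbh and Pnmt were read in every library, Pnmt at means of 0.512 CPM on chow and 0.546 CPM with HFD-LNAME. Ddc and Dbh averaged 6.28 ± 3.64 and 3.67 ± 1.70 CPM on chow and 4.87 ± 2.73 and 3.34 ± 1.01 CPM with HFD-LNAME (SD, n = 4 each). Their log2 fold changes were -0.36 ± 0.51 and -0.13 ± 0.37. Th, the first of these enzymes, had 13 counts each in HFD-LNAME 2 and 3 and 0 in the other 6 libraries, and Chat, which makes acetylcholine, 6 and 10 counts in the same 2 libraries and 0 elsewhere. Ddc, Dbh, Pnmt, Th and Chat are named after their values were seen. The acetylcholine-splitting enzymes Ache and Bche had log2 fold changes of 0.67 ± 0.32 (edgeR adjusted p = 0.548) and -0.16 ± 0.09.

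The genes most like each receptor across the 8 libraries were found by Pearson's r of log2 CPM over 12072 named genes of at least 1 CPM. The r are descriptions over points that share diet and tissue makeup, and with 8 libraries many genes reach a high r. For Adra1b they included Bcl2l2 (0.98) and Ift43 (0.97), and 32 genes had an r over 0.9. For Adra1d they were Fbn1, Fam78a and Stt3a (0.98 each) and Islr (0.97), with 54 genes over 0.9. Chrm2 was most like Sort1 (0.97), Tll1, Trf and Brsk1 (0.95 each). Adra1a was most like Gramd1a (0.96), Pnpla7 (0.95), Abcf3 and Celsr1 (0.94 each), and Adrb1 most like Ppp1r18 (0.97), Cxxc1 (0.96), Tmub1 (0.95) and Commd8 (0.93). With each diet's mean subtracted, the r of the 4 genes most like each receptor ran from 0.94 to 0.99. Adrb3 had too few libraries with 10 counts to be compared.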

How the data were processed

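The members and gene lists were chosen with earlier results of these data known. The authors deposited raw counts per gene for the 8 libraries. They also deposited a comparison table of log2 fold changes, a test score, p-values and adjusted p-values. The submitters' processing notes list STAR 2.6, Trim Galore 0.4.0, DESeq2 1.22.1 and bcl2fastq 1.8.4. The genome build they name is human, but every row carries an identifier of the C57BL/6NJ mouse annotation. The counting tool and strand setting were not given in the sources used here. A further 8 columns of normalised values per sample in the comparison table were not used.

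Gene names came from the authors' table, with Grk2 and Grk3 found through RefSeq synonyms. Rows with no name, 9.19% to 10.5% of a library's counts, stayed in. The main test was edgeR's quasi-likelihood test (edgeR 4.0.16, R 4.3.3) with TMM factors, filterByExpr and a threshold of 0.05 on Benjamini-Hochberg adjusted p, fitted on all 14875 genes that passed the filter. CPM are counts over TMM-scaled totals. SE came from the F statistic, as the absolute log2 fold change over its square root, and intervals of fold changes span 1.96 SE to either side. These intervals are approximate and narrower than the test implies. For Gnas the interval of the ratio, 1.01 to 1.23, lies above 1 although edgeR's unadjusted p is 0.0538. Alternatives were DESeq2 1.42.0, limma-voom (limma 3.58.1), other scalings, no filter, marker covariates and left-out libraries. The edgeR, DESeq2 and limma-voom fits at their main settings were run on simulated data, with a pass check for edgeR alone. The other alternatives were not run on simulated data. Pathway genes were named by a rule: the 2 smallest p in each list and 12 fixed genes. For likeness the rule took the 4 highest r. A few genes that these rules name are not reported here. Columns were matched to libraries by the mouse number in the titles, and replicates were numbered in accession order. Replicates differed beyond sampling noise (chi-square per degree of freedom 25.3 to 64.7).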

Additional observations from a re-analysis of the deposited data

Results flagged for a closer look

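Adra1a stood at 35.0 CPM in HFD-LNAME 1, apart from the other 3 treated libraries at 22.2 to 24.4 CPM. The gap to the nearest of them was 0.830 of the group's whole range, just past the limit for a sample far from the others. Of 11 groups of 4 libraries examined over the 6 receptors, this was the 1 that passed, and chance flags about 1 in 20.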

How the results depend on the processing

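Adra1b kept its direction in 18 of 19 alternatives and passed the threshold in none (log2 fold change -0.02 to 0.55, adjusted p 0.169 to 0.989). The exception was the 3 libraries with Myl7 under 200 CPM, at -0.022, where Adrb1 also turned, to -0.10. Leaving out 1 library moved Adra1a between -0.39 and 0.036 (turned without chow 4), Adra1d between -0.37 and 0.028 (turned without HFD-LNAME 1), and turned Chrm2 to 0.0093 (without chow 1) and 0.012 (without HFD-LNAME 1). The adipocyte score as a covariate moved Adra1d from -0.16 to -1.03 ± 0.56, Chrm2 from -0.05 to -0.36 ± 0.13 and Adra1a from -0.23 to -0.05 ± 0.40. It moved Adra1b from 0.38 to 0.55 ± 0.22 and Adrb1 from 0.12 to 0.23 ± 0.22. With the atrial score as a covariate, Adra1b was at 0.34 ± 0.13, Adrb1 at 0.18 ± 0.12 and Adra1a at -0.11 ± 0.20. In that fit Adra1d was at -0.39 ± 0.32 and Chrm2 at -0.10 ± 0.09. Leaving out HFD-LNAME 2 and 3 moved Adra1d to -0.66 ± 0.42 and Chrm2 to -0.19 ± 0.10. None of these passed the threshold. The cause of these moves was not tested. Over all genes edgeR called 2. DESeq2 called 164, limma-voom 0, edgeR on every gene with a count 34, and edgeR 0 without HFD-LNAME 2 and 3, with the adipocyte or the atrial score as a covariate, and in the 5 libraries with Myl7 above 200 CPM. In the 3 others, where 1 treated library is assumed to vary like chow, it called 52. Fits without 1 library called 0 to 3, with 0 without chow 1, 2 or 4 or HFD-LNAME 2 or 4 and 1 without HFD-LNAME 1. Of the pathway genes edgeR called 0, also in each fit without 1 library (0 to 0), DESeq2 1 and the 3 libraries with little Myl7 1. The adipocyte score follows the groups (correlation 0.826). With every gene with a count kept, Adrb3 had an edgeR adjusted p of 0.152. No paired analysis was possible because the labels give no replicate numbers that groups share. Depth limits Adrb3, since up to 3 counts are allowed for a count of 0.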
